A study of Mus musculus with 3 samples.

Results

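Genes of fat absorption and chylomicron assembly were followed through the enterocytes of the mouse small intestine in single-cell RNA sequencing. The set held 10 genes, chosen by name for their role, but with earlier results of these data known. All 10 were found among the 13891 genes of the table: Fabp1, Fabp2, Mogat2, Dgat1, Dgat2, Mttp, Apob, Apoa1, Apoa4 and Apoc3. They were read in 4883 enterocytes of 12653 cells, with 3286 crypt cells and 1836 goblet cells as the background. Classes of cells were named from marker genes outside the set.

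Male ICR mice, an outbred strain, 3 weeks old at the start, were given busulfan, an alkylating anticancer drug that injures the gut lining, followed by alginate oligosaccharides (AOS) or water, or served as controls. The AOS 0 library came from control mice without busulfan that received water by gavage. The B + A 0 library came from mice injected once with busulfan at 40 mg/kg and gavaged with water, and the B + A 10 library from mice with the same injection that were gavaged with AOS at 10 mg/kg, each once a day for 2 weeks. Epithelial cells of 6 mice were combined in each library, so that the mice of a group could not be told apart and each group was 1 library.

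With 1 library per group there was no replicate check of any difference between groups, and no test was made. The intervals given are 95% intervals (exact Poisson for a level, exact binomial for a share or a ratio of levels), and they cover counting error only. A level is the number of unique molecular identifiers (UMIs, the tags that count single captured transcripts at their 3′ end) of a gene per 10000 UMIs of all genes, summed over the cells of a class. A transcript of this kind is counted once whatever its length. Values given as 3 in a row follow the order of these groups, with the control first and AOS after busulfan last.

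The libraries held 4106, 3195 and 5352 cells and 35258551, 26044381 and 23003083 UMIs. The median cell held 7371, 6407 and 3505 UMIs, so the B + A 10 cells were the shallowest, and 82 cell barcodes occurred in more than 1 library. The source names of both busulfan libraries carried other codes than their titles, and the titles, descriptions and treatment entries were followed.

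Dietary fat reaches the enterocyte as fatty acids and monoacylglycerol, which are bound inside the cell by small fatty acid binding proteins and joined again into triglyceride at the endoplasmic reticulum. Microsomal triglyceride transfer protein then loads the lipid onto apolipoprotein B, and the particle takes up exchangeable apolipoproteins before it leaves for the lymph as a chylomicron. This work is known to belong to the villus of the proximal small intestine, while the ileum is known for taking back bile acids.

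The enterocytes fell into 6 classes. Gsdmc2, Gsdmc4 and Dmbt1 marked 726 early-like cells (263, 156 and 307). Ms4a18 and Il18 marked 1020 mid-villus-like cells (316, 239 and 465). Rbp2, a retinol carrier, and Adh6a marked 774 proximal-like cells (240, 158 and 376). S100g, a calcium carrier of the duodenum, marked 356 duodenal-like cells (86, 86 and 184), in which it stood at 148 UMIs per 10000 against 2.57 in proximal-like cells. The brush border genes Slc5a12 and Enpp7 marked 1033 mature-like cells (340, 232 and 461). The bile acid genes Fabp6 and Slc10a2 marked 974 ileal-like cells (364, 243 and 367), in which Fabp6 stood at 435 UMIs per 10000 against 5.86 in proximal-like and 32.3 in mature-like cells. The names of the first 3 classes rested on smaller contrasts. Gsdmc2 stood at 0.80 in early-like against 0.539 in ileal-like cells, while Ccl25 and Reg3g of the early list were higher in other classes. Ms4a18 was at 4.42 in mid-villus-like and 3.45 in proximal-like cells, but the other 5 markers of the mid-villus list were higher in proximal-like cells, such as Slc5a1 at 12.3 against 5.15 and Slc2a2 at 1.38 against 0.318. The proximal-like cells had 2 mid-villus markers (Slc2a2 and Lct) and 2 proximal markers (Rbp2 and Adh6a) among their 10 leading genes and scored slightly higher on the mid-villus list (1.65 against 1.55, mean standardised levels), so that Rbp2 standing ahead of the others decided their name. Rbp2 was highest there, at 203 against 164 in mature-like cells, as was Aldh1a1, whereas Adh6a, Gstm3, Gsta1 and Cyp3a11 were higher in duodenal-like cells and Ces2e and Cyp3a11 in mature-like cells.

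All 10 genes were higher in the enterocytes than in the crypt-like and goblet-like cells. Other classes and the unnamed clusters were not compared in this way. Each was at least 2-fold above the crypt-like cells in every library, a mark passed by 13.6% of the 8440 genes compared, and each was at least 2-fold above the goblet-like cells in every library, passed by 27.3% of 6994 genes. Together the 10 genes took 12% of all UMIs of the mature-like cells (481067 of 4023795), 7.16% in proximal-like, 4.73% in duodenal-like, 2.07% in mid-villus-like and 0.567% in early-like cells. The share was 0.328% in crypt-like and 0.510% in goblet-like cells. Counted by UMIs, Fabp2 was the first and Apoa1 the second of all genes in the mature-like cells, with Fabp1 at rank 5, Apoa4 at rank 11 and Apoc3 at rank 18, while Mttp held rank 54, Apob rank 104, Dgat1 rank 160, Mogat2 rank 267 and Dgat2 rank 781.

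**Figure D1:**
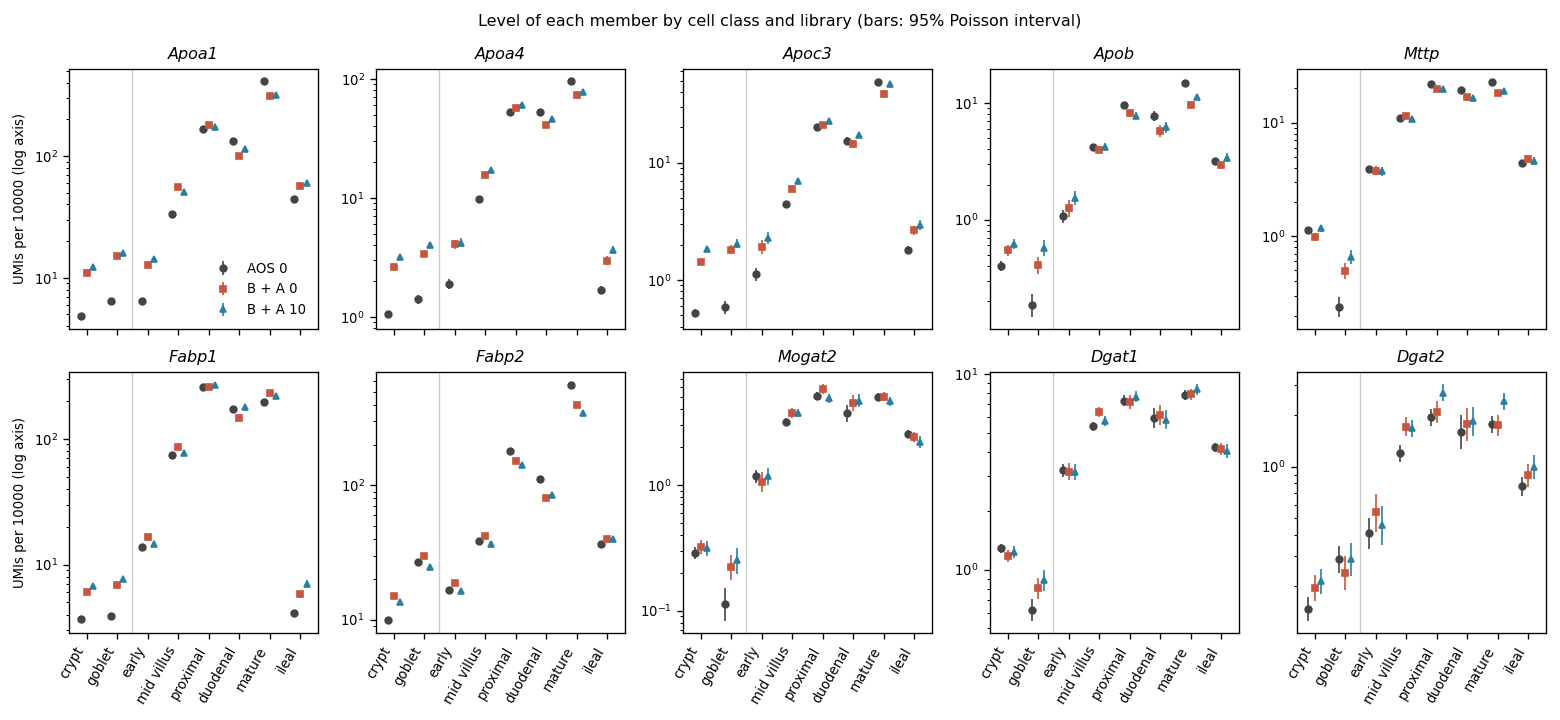
Level of each of the 10 genes in UMIs per 10000 (log axis, 1 panel per gene) in crypt-like and goblet-like cells (left of the line) and in the 6 enterocyte classes, with 1 point per library (circle AOS 0, square B + A 0, triangle B + A 10) and bars for the 95% Poisson interval. All 10 genes climb from early-like to proximal-like cells and stand lower in ileal-like cells, where Fabp1 and Apoa4 lie at the goblet-like level.

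Of the intracellular carriers, Fabp1, the liver-type fatty acid binding protein, was highest in proximal-like cells, at 257 (254 to 259.7), 256 (252 to 259) and 268 (265 to 271) UMIs per 10000. It was at 13.8, 16.7 and 14.5 in early-like, 74.8, 86.5 and 77.5 in mid-villus-like, 173, 147 and 179 in duodenal-like and 194, 231 and 219 in mature-like cells. The goblet-like cells held 3.87, 6.82 and 7.71. The 3 libraries kept one order of classes, with proximal-like above mature-like and mature-like above duodenal-like cells, and the ratio of mature-like to proximal-like cells was 0.815 (0.808 to 0.823) over all libraries.

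Fabp2, the intestinal-type fatty acid binding protein, was highest in mature-like cells instead. It stood at 180.4, 153 and 142 UMIs per 10000 in proximal-like and at 564 (560.3 to 568), 398 (394 to 402) and 345 (342 to 349) in mature-like cells. It held 16.6, 18.9 and 16.4 in early-like cells, below the 26.7, 29.9 and 24.5 of goblet-like cells in every library. Every library thus showed Fabp2 above its goblet-like level from the mid-villus-like cells on, at 38.7, 41.7 and 36.9, and its ratio of mature-like to proximal-like cells was 2.80 (2.78 to 2.83).

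The re-esterifying enzymes differed least between early-like and mature-like cells over all libraries. Mogat2, which joins a fatty acid to monoacylglycerol, was at 1.17, 1.06 and 1.17 UMIs per 10000 in early-like, 3.18, 3.74 and 3.73 in mid-villus-like, 5.14, 5.80 and 4.90 in proximal-like and 5.03, 5.03 and 4.65 in mature-like cells. Dgat1, which completes triglyceride, stood at 3.22, 3.17 and 3.17 in early-like, 5.40, 6.40 and 5.77 in mid-villus-like, 7.32, 7.20 and 7.66 in proximal-like and 7.83, 7.90 and 8.34 in mature-like cells. Both enzymes thus differed little between the proximal-like and mature-like classes. Dgat2, an unrelated enzyme for the same step, was the least counted, at 0.409, 0.540 and 0.457 in early-like, 1.20, 1.72 and 1.68 in mid-villus-like, 1.94, 2.08 and 2.71 in proximal-like and 1.77, 1.76 and 2.41 in mature-like cells. The proximal-like and mature-like intervals of these 3 enzymes overlapped in every library, and the ratio of mature-like to crypt-like cells was 16.1 for Mogat2, 10.9 for Dgat2 and 6.47 for Dgat1.

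For particle assembly, Mttp, the transfer protein, was at 3.88, 3.78 and 3.74 UMIs per 10000 in early-like, 11, 11.3 and 10.8 in mid-villus-like, 21.8, 19.6 and 19.5 in proximal-like and 22.6, 18.2 and 18.8 in mature-like cells, against 0.239, 0.496 and 0.661 in goblet-like cells. Apob, the structural protein of the particle, was between 1.07 and 1.54 in early-like cells of the 3 libraries, at 4.23, 3.98 and 4.20 in mid-villus-like, 9.58, 8.14 and 7.82 in proximal-like and 15.0 (14.4 to 15.6), 9.70 (9.14 to 10.3) and 11.2 (10.6 to 11.8) in mature-like cells. Mttp levelled off at the proximal-like class, with a ratio of mature-like to proximal-like cells of 0.986 (0.955 to 1.02), while Apob was higher in mature-like cells in every library, with a ratio of 1.43 (1.36 to 1.49).

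The exchangeable apolipoproteins climbed at every step. Apoa1, which chylomicrons share with high density lipoprotein, stood at 33.7, 55.7 and 50.9 UMIs per 10000 in mid-villus-like, 167, 181 and 175 in proximal-like and 414 (411 to 417), 312 (309 to 315) and 319 (316 to 322) in mature-like cells. Apoa4, an apolipoprotein made mainly by the intestine in mice, was at 9.86, 15.6 and 17.3 in mid-villus-like, 53.1, 57.1 and 60.2 in proximal-like and 95.3, 72.8 and 77.5 in mature-like cells. Apoc3, an inhibitor of triglyceride clearance, was at 4.46, 5.97 and 6.99 in mid-villus-like, 20.2, 20.9 and 22.5 in proximal-like and 48.8, 38.4 and 47.1 in mature-like cells. All 3 were highest in mature-like cells in every library. The ratio of mature-like to crypt-like cells ran from 25.9 to 85.0 across the libraries for Apoa1, from 24.3 to 90.4 for Apoa4 and from 25.6 to 93.1 for Apoc3, highest in AOS 0 for all 3, against 32.5 to 52.7 for Fabp1 and 25.3 to 56.5 for Fabp2.

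The steps between classes differed from gene to gene, also within a role. Position along the villus was not measured, so a step is a difference between named classes. From early-like to mid-villus-like cells all 10 genes were at least 1.5-fold higher in every library, against 10.5% of 4061 genes. From mid-villus-like to proximal-like cells 7 of 10 passed, against 6.1% of 3703 genes, and the 3 that did not were Mogat2 (ratios of 1.31 to 1.62), Dgat1 (1.13 to 1.36) and Dgat2 (1.21 to 1.62). From proximal-like to mature-like cells Fabp2, Apoa1 and Apoc3 passed, 3 of 10 against 2.56% of 3052 genes, and 0 of 10 were at least 1.5-fold lower, against 3.41%. Over all libraries the last ratio was 1.48 for Apoa4, 1.43 for Apob, 1.08 for Dgat1, 0.941 for Mogat2 and 0.877 for Dgat2.

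The first appearance of the genes was read against the goblet-like cells, which are known to make no chylomicrons. In early-like cells 6 of 10 genes were at least 1.5-fold above the crypt-like cells in every library (Fabp1, Mogat2, Dgat1, Dgat2, Mttp and Apob), against 9.06% of 7231 genes, and 5 of 10 were so above the goblet-like cells (the same without Dgat2), against 50.8% of 4252 genes, so that the second share was at the background. Genes compared here and in each count were those with at least 300 UMIs in the cells compared. The ratio of early-like to goblet-like cells ran from 5.66 to 16.2 for Mttp, from 4.66 to 10.3 for Mogat2, from 3.60 to 5.18 for Dgat1 and from 2.70 to 5.77 for Apob across the libraries. It ran only from 0.850 to 0.994 for Apoa1, from 1.05 to 1.34 for Apoa4 and from 0.624 to 0.670 for Fabp2. Apoa1 stood at 6.41, 12.7 and 14.1 UMIs per 10000 in early-like and 6.44, 15.0 and 16.0 in goblet-like cells. It was thus no higher in the early-like enterocytes than in goblet-like cells, but lay at 1.15 to 1.32 times the crypt-like level. How much of it was background was not measured. Goblet-like cells are no plain background for Fabp2, of which they held 414, 199 and 153 UMIs for each 100 of Apoa1, against 129, 109 and 93.1 in the whole libraries. Early-like cells held 259.5, 148 and 116 and lay at 1.21 to 1.67 times the crypt-like level. For Apoa4 they held 29.4, 32.0 and 29.8 against 21.8, 22.7 and 25.1 in goblet-like cells, above the goblet-like ratio in every library.

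Within the crypt, the cells led by the mitotic gene Cdc20 held more of 3 genes than the cells led by the stem cell gene Olfm4. Mttp stood at 2.04, 1.59 and 1.81 UMIs per 10000 in the Cdc20 cells and at 0.516, 0.597 and 0.984 in the Olfm4 cells. The ratio ran from 1.84 to 3.96 for Mttp, from 1.66 to 2.92 for Dgat1 and from 2.0 to 5.20 for Mogat2. These 3 of the 9 genes with enough UMIs passed 1.5-fold in every library, against 10.7% of 4238 genes. All 6 markers of the early enterocyte list were also higher in the Cdc20 cells in every library, as were 19 of the 34 markers of all enterocyte lists but 0 of the 5 mature markers. The share of all genes higher by any amount was not counted. The 6 early markers summed to 144, 148 and 153 UMIs per 10000 against 48.8, 57.5 and 66.8 in the Olfm4 cells. Most of these sums was Reg3g, at 121, 126 and 131 against 43.9, 52.4 and 62.1, while Gsdmc2 was at 0.418, 0.427 and 0.409 in the Cdc20 cells. The part of these markers in the difference was not tested.

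For Mttp, shares of cells with a UMI gave the same order of classes once each cell was thinned to 1000 UMIs, a number every cell held. It was seen in 30.6% of early-like, 63.7% of mid-villus-like, 84.6% of proximal-like and 82.6% of mature-like cells, against 5.28% (4.30% to 6.41%) of goblet-like cells. The T-cell-like share, at 28.4% (23.9% to 33.3%), lay close to the early-like one, so the early-like share was not particular to enterocytes. Without thinning the shares were 80.4% in early-like, 98.7% in mature-like and 20.4% in goblet-like cells, whose median depths were 5925, 3736 and 5136 UMIs. Mogat2 was seen in 10.2% of thinned early-like and 2.18% of thinned goblet-like cells, while Apoa1 was seen in 60.3% and 64.2%, no higher in early-like cells. Of thinned T-cell-like cells 14.2% held a Mogat2 UMI, above the early-like share.

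Ileal-like cells held less of every gene than the pooled proximal-like, duodenal-like and mature-like cells. All 10 were at least 1.5-fold lower in every library, against 13.8% of 4857 genes. Over all libraries the level was 42.3 times lower for Fabp1, 26.9 for Apoa4, 13.5 for Apoc3, 7.32 for Fabp2, 4.78 for Apoa1, 4.35 for Mttp, 3.14 for Apob, 2.37 for Dgat2, 2.03 for Mogat2 and 1.79 for Dgat1. The enzymes were therefore the least reduced in ileal-like cells, and Fabp1 and Apoa4 the most. The pool left out early-like and mid-villus-like cells. On the early marker list ileal-like cells scored 1.70, near the 1.87 of early-like cells. Mature-like, proximal-like and duodenal-like cells scored -0.09, 0.06 and -0.06 on it. Region and maturity of the cells could thus not be told apart in this comparison.

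Genes at the goblet-like level and genes above it stood side by side in these cells. Fabp1 was at 4.13, 5.79 and 7.07 UMIs per 10000 in ileal-like against 3.87, 6.82 and 7.71 in goblet-like cells, and Apoa4 at 1.68, 2.97 and 3.65 against 1.40, 3.40 and 4.02, so that both lay near the goblet-like level. Apoa1 was at 44.6, 56.5 and 59.9, or 3.74 to 6.93 times its goblet-like level across the libraries, and Mttp at 4.38, 4.83 and 4.62, or 6.98 to 18.3 times. Fabp2 was at 36.6, 39.7 and 39.8, or 1.33 to 1.62 times. In all, 6 of 10 genes were at least 1.5-fold above the goblet-like cells in every library, against 37.2% of 4587 genes, and the 4 that were not were Fabp1, Fabp2, Apoa4 and Apoc3. Over all libraries, T-cell-like cells led by Gzma held more Apoa1 (68.9 against 51.5), Mttp (5.04 against 4.56) and Fabp2 (63.9 against 38.2) than ileal-like cells. They also held more Fabp1 (46.6 against 5.27), Apoa4 (15.5 against 2.49) and Apoc3 (7.24 against 2.30), but less Apob, Mogat2, Dgat1 and Dgat2. The median of all T-cell-like cells was 16.5 for Apoa1, against 20.7 in ileal-like cells. How much of these levels was background was not measured. For each 100 Apoa1 UMIs the ileal-like cells held 3.77, 5.26 and 6.10 Apoa4 UMIs, against 21.8, 22.7 and 25.1 in goblet-like, 22.7, 23.4 and 25.1 in the 432 Paneth-like (defensin-making) and 23.0, 23.3 and 24.3 in mature-like cells, so that Apoa4 was scarcer beside Apoa1 in ileal-like cells than in these classes.

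Apoa1, Apoc3 and Apoa4 are neighbours on chromosome 9, at chr9:46228580-46230466 on the plus strand, chr9:46232933-46235636 on the minus strand and chr9:46240696-46243459 on the plus strand (GRCm38). The gaps between them are 2.47 and 5.06 kb, with Apoc3 between the other two. The remaining genes lie apart: Fabp1 at chr6:71199827-71205023, Fabp2 at chr3:122895072-122899506, Mttp at chr3:138089854-138144968, Apob at chr12:7977648-8016835, Dgat1 at chr15:76502015-76511953, and Dgat2 and Mogat2 at chr7:99153658-99182719 and chr7:99219084-99238619. All 10 are annotated as protein coding.

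The promoter windows of Apoa1 and Fabp2, which stood above their goblet-like levels in the ileal-like cells of every library, are shown beside those of Apoa4 and Fabp1, which lay at theirs, so that both pairs can be compared. Each runs 5′ to 3′ on the plus strand, from 250 bases before to 50 after the RefSeq start site in GRCm38.p6, and windows of 6 of the 10 genes were given. Capitals mark matches, on either strand, to TATAAA (the TATA box), GATAAG (bound by GATA factors), CAAAGNNCA (the direct repeat type bound by HNF4) and GTTAAT (part of the site of HNF1), which do not overlap here. The Apoa1 window is chr9:46228380-46228679 and the Fabp2 window chr3:122894822-122895121.
Apoa1: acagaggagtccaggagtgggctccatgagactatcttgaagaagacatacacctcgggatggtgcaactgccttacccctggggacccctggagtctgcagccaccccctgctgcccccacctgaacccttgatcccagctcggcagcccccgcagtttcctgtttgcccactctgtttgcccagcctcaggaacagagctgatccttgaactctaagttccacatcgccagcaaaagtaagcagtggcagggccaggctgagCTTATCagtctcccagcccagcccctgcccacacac
Fabp2: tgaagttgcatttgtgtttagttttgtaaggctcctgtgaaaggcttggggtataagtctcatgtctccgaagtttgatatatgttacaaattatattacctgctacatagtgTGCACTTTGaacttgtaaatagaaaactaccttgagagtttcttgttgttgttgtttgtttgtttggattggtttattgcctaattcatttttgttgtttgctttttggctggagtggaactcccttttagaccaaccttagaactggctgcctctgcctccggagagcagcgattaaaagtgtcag
The Apoa4 window is chr9:46240594-46240893 and the Fabp1 window chr6:71199629-71199928.
Apoa4: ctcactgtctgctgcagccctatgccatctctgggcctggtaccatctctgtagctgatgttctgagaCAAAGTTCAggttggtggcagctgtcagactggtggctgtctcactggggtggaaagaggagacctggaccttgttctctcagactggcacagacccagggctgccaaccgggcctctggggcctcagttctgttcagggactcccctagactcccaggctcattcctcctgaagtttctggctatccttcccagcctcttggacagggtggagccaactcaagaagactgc
Fabp1: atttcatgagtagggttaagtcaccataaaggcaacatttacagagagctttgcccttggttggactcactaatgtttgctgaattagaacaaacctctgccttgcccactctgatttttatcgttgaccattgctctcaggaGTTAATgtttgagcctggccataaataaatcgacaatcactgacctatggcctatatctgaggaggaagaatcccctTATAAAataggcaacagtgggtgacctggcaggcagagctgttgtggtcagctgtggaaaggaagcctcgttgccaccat

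The Fabp1 window held TATAAA at 30 and GTTAAT at 107 bases before the start. The Apoa4 window held CAAAGNNCA at 182 bases before it and the Fabp2 window the same motif on the minus strand at 137 bases before it. The Apoa1 window held GATAAG on the minus strand, 14 bases after the start. These distances are from the RefSeq start. For Apoa1, Apoa4 and Fabp1 it lies inside the gene span given above, so distances from the gene start differ. Of the 32851 windows of all genes 13.6% held TATAAA, 7.44% GATAAG, 6.36% CAAAGNNCA and 7.10% GTTAAT, so single matches are common. No motif was shared by Apoa1 and Fabp2 or by Apoa4 and Fabp1, and a match describes the letters only.

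At a finer clustering, looked at after the values were known, the ileal-like cells parted into a group led by Fabp6 and Mgat4c (178, 110 and 189 cells) and a group led by Tmigd1 and Slc10a2 (173, 126 and 178 cells), of whose cells 84.5% and 100% were ileal-like before. Apoa1 was at 15.6, 20.9 and 24.4 UMIs per 10000 in the first and at 89.2, 103 and 114 in the second. Fabp2 was at 12.7, 19.1 and 16.8 in the first and 72.5, 67.7 and 74.1 in the second. The libraries of the first group lay below every library of the second for both genes, and Fabp2 in the first group lay below its goblet-like level. Fabp1 was at 4.82, 5.58 and 6.93 in the first and 3.98, 6.68 and 7.97 in the second group. Apoa4 was at 1.80, 2.69 and 2.90 in the first and 1.69, 3.43 and 4.83 in the second, and Mttp at 4.20, 4.72 and 4.61 in the first and 5.78, 5.83 and 5.65 in the second. The rise between the groups was thus large for Apoa1 and Fabp2 and small for Mttp, while Fabp1 and Apoa4 stayed near their goblet-like levels in both.

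The mature-like cells parted into a group led by Cyp3a11 and Slc5a12 (183, 104 and 236 cells) and one led by Enpp7 and Dnase1 (134, 112 and 196 cells). Apoa4 was at 144, 115 and 109.6 UMIs per 10000 in the first and 36.0, 32.5 and 39.8 in the second. Fabp1 was at 242, 316 and 264 in the first and 115, 145 and 153 in the second. Both genes were higher in the Cyp3a11 group in every library, whereas Fabp2, at 542, 394 and 321 in the first and 640.0, 418 and 394 in the second, was higher in the Enpp7 group in every library. Apoa1 was at 469.6, 351 and 347 in the first group and 374, 288 and 302 in the second, and Dgat1 at 7.33, 7.86 and 8.18 in the first and 8.42, 7.93 and 8.35 in the second.

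**Figure D2:**
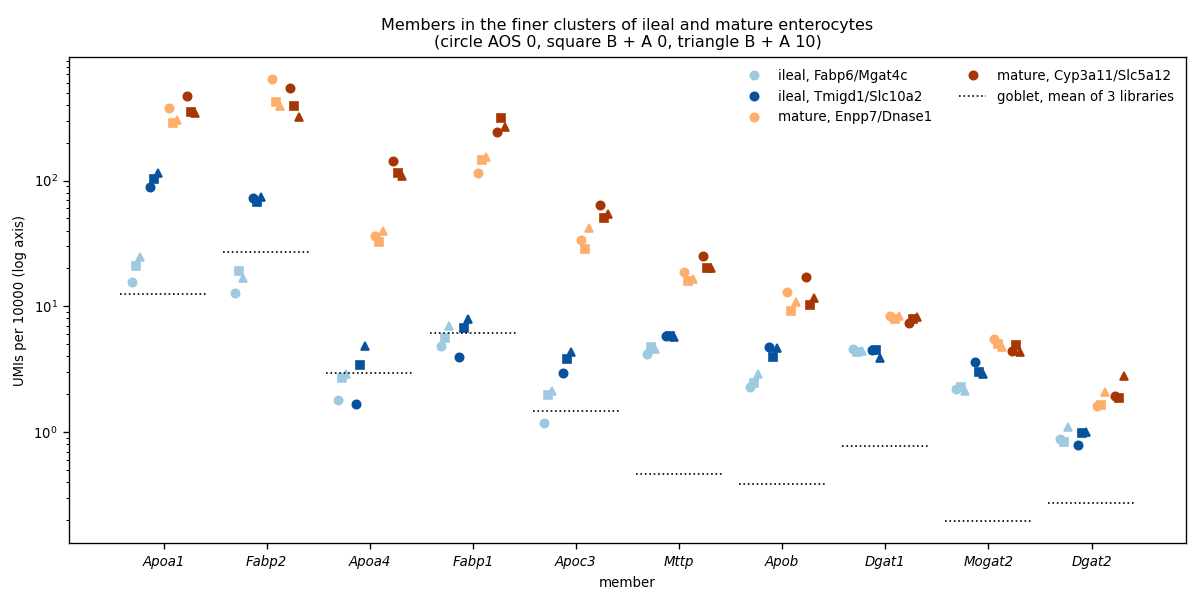
Level of each gene in UMIs per 10000 (log axis) in the finer clusters of ileal-like (blue) and mature-like (orange) cells, with the libraries as circle (AOS 0), square (B + A 0) and triangle (B + A 10) and the mean goblet-like level of the 3 libraries as a dotted line. Apoa1 and Fabp2 separate the ileal-like clusters and Apoa4 and Fabp1 separate the mature-like clusters.

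Single cells varied widely. In ileal-like cells the 10th percentile, the median and the 90th percentile of Apoa1 were 4.08, 20.7 and 183 UMIs per 10000 of a cell, and those of Fabp2 5.58, 16.5 and 135. Those of Fabp1 were 0, 3.89 and 11. In mature-like cells Apoa1 ran at 157, 314 and 632, Fabp2 at 174, 352 and 817 and Fabp1 at 24.7, 211 and 398, so that the lowest cells were furthest below the median for Fabp1. Across thinned cells of 1 library, which share depth and library, Pearson's r of Apoa1 with Fabp2 was 0.76, 0.61 and 0.67 in ileal-like cells. In mature-like cells r was 0.41, 0.63 and 0.40 for Apoa4 with Fabp1 and -0.21, 0.01 and -0.19 for Fabp1 with Fabp2, and these values describe cells of 3 libraries and carry no test.

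**Figure D3:**
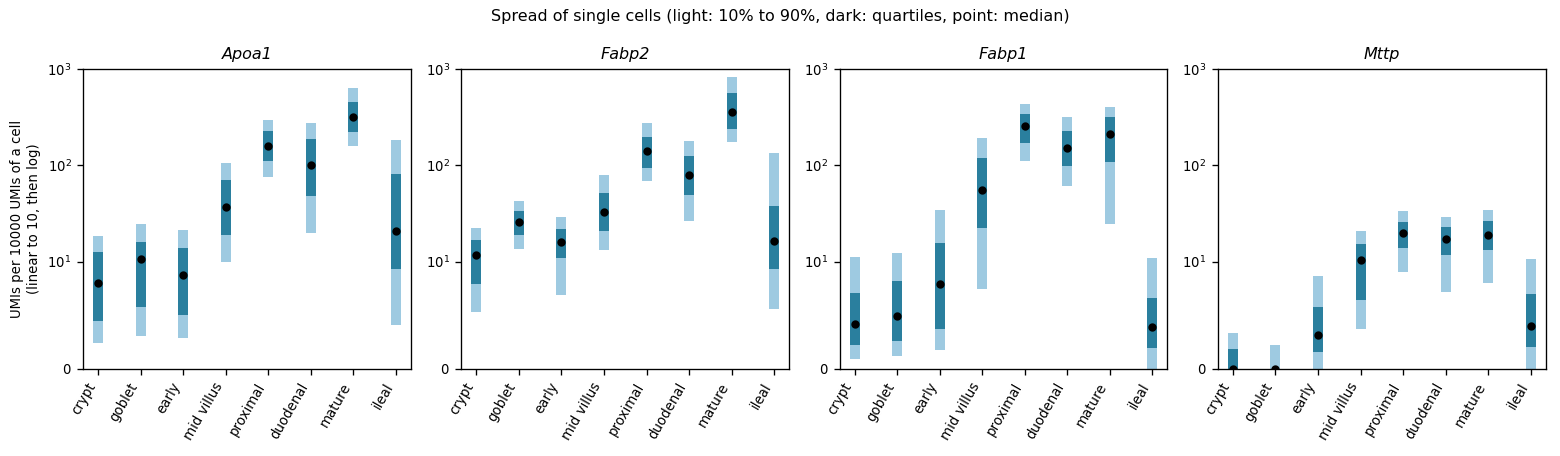
Spread over single cells of all libraries of Apoa1, Fabp2, Fabp1 and Mttp in UMIs per 10000 UMIs of a cell (linear to 10, then a log axis), by class, with light bars from the 10th to the 90th percentile, dark bars for the quartiles and a point at the median. Apoa1 and Fabp2 are spread most widely in ileal-like cells, and the ileal-like Fabp1 bar lies over the goblet-like one.

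Outside the set, the genes whose levels over the 21 clusters were most like each member were named from the 9256 genes with at least 300 UMIs. Pearson's r on log2 levels was 0.987 for Apoa4 with Leap2, 0.989 for Apoc3 with H2-Q1, 0.982 for Apoa1 with 2010106E10Rik, 0.992 for Apob with Gda and 0.993 for Mttp with Aldh1a1. It was 0.978 for Fabp1 with Adh6a, 0.972 for Fabp2 with Ace, 0.990 for Mogat2 with Ces2c, 0.990 for Dgat1 with Chp2 and 0.984 for Dgat2 with Slc7a7. Adh6a and Aldh1a1 are themselves on the marker list of the proximal-like class. Clusters share cells of the same libraries, so these values are descriptions.

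The wider fat pathway was read from lists of 36 further genes in the table, 29 of them with enough UMIs for the comparison with the crypt. At least 2-fold above crypt-like cells in every library were 19 of 29, against 13.6% of 8440 genes. They were 4 of 7 for uptake and activation, where the fatty acid receptor Cd36 had the highest ratio (12.6) and the ligase Acsl3 the lowest (0.24), and 4 of 8 for triglyceride and sterol ester synthesis, from Soat2 (8.07) to Gpat4 (0.42). They were 3 of 5 for droplets and lipolysis, from Cideb (9.74) to Pnpla2 (1.32), 6 of 7 for assembly and export, from Apoc2 (11.2) to Mia3 (1.53), and 2 of 2 for the sterol exporters Abcg8 (7.85) and Abcg5 (7.35). Of 26 genes compared in ileal-like cells 18 were at least 1.5-fold lower there, against 13.8% of 4857 genes, among them Cd36 at 37.6 times lower.

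The libraries were then compared to see whether busulfan, and AOS after it, went with other levels of these genes. In all enterocytes together Fabp1 was at 86.9, 100.5 and 111 UMIs per 10000, Fabp2 at 130.0, 111 and 103 and Apoa1 at 107, 108 and 113. Mttp was at 11.1, 10.7 and 11.3, Apob at 5.68, 4.78 and 5.38 and Dgat2 at 1.12, 1.35 and 1.61. The sum of the 10 genes lay close together, at 3.87%, 3.83% and 3.99% of enterocyte UMIs, while single genes such as Fabp1 and Fabp2 went opposite ways. In mature-like cells the sum was 13.7%, 10.9% and 10.5%, highest in the control, and in ileal-like cells it was 1.04%, 1.23% and 1.29%.

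At 1.5-fold, 0 of 10 genes were past the mark in each of the 3 comparisons. Over the 6279 genes compared, 1.47% were higher and 0.971% lower in B + A 0 than in AOS 0, 1.24% higher and 0.589% lower in B + A 10 than in B + A 0, and 3.31% higher and 2.28% lower in B + A 10 than in AOS 0. The lowest ratio of B + A 0 to AOS 0 was 0.841 (0.807 to 0.877) for Apob and the highest 1.21 (1.11 to 1.31) for Dgat2. Of B + A 10 to B + A 0 the ratios ran from 0.928 (0.919 to 0.937) for Fabp2 to 1.24 (1.21 to 1.28) for Apoc3. Of B + A 10 to AOS 0 they ran from 0.790 (0.784 to 0.797) for Fabp2 to 1.44 (1.33 to 1.56) for Dgat2, with 1.28 (1.27 to 1.29) for Fabp1. The median log2 ratio of the 10 genes was 0.03, 0.11 and 0.10 in these comparisons, against -0.06, 0.04 and -0.02 over all genes, and the comparisons share libraries.

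By class, the mature-like cells of AOS 0 stood above both busulfan libraries for several genes. The ratio of B + A 0 to AOS 0 there was 0.753 (0.744 to 0.763) for Apoa1, 0.764 (0.744 to 0.784) for Apoa4, 0.706 (0.698 to 0.714) for Fabp2 and 0.648 (0.604 to 0.696) for Apob. The ratio of B + A 10 to AOS 0 was 0.770 (0.760 to 0.780) for Apoa1, 0.814 (0.793 to 0.835) for Apoa4, 0.612 (0.605 to 0.619) for Fabp2 and 0.746 (0.698 to 0.798) for Apob. At least 1.5-fold lower were 1 of 10 genes in B + A 0 (Apob), against 3.95% of 1824 genes, and 1 of 10 in B + A 10 (Fabp2), against 2.52%. Fabp1 went the other way, with ratios of 1.19 (1.17 to 1.21) and 1.13 (1.11 to 1.14), and Dgat2 was at 0.994 (0.827 to 1.19) and 1.37 (1.16 to 1.61). In proximal-like cells 0 of 10 genes passed in B + A 0, against 2.04% higher and 1.74% lower, and 0 of 10 in B + A 10, against 3.6% and 1.98%. In duodenal-like cells 0 of 9 passed in B + A 0, against 5.02% higher and 1.8% lower, and 0 of 9 in B + A 10, against 5.28% and 2.83%. Between both busulfan libraries 0 of 10 genes passed 1.5-fold in mature-like cells, against 2.63% higher and 1.32% lower.

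**Figure D4:**
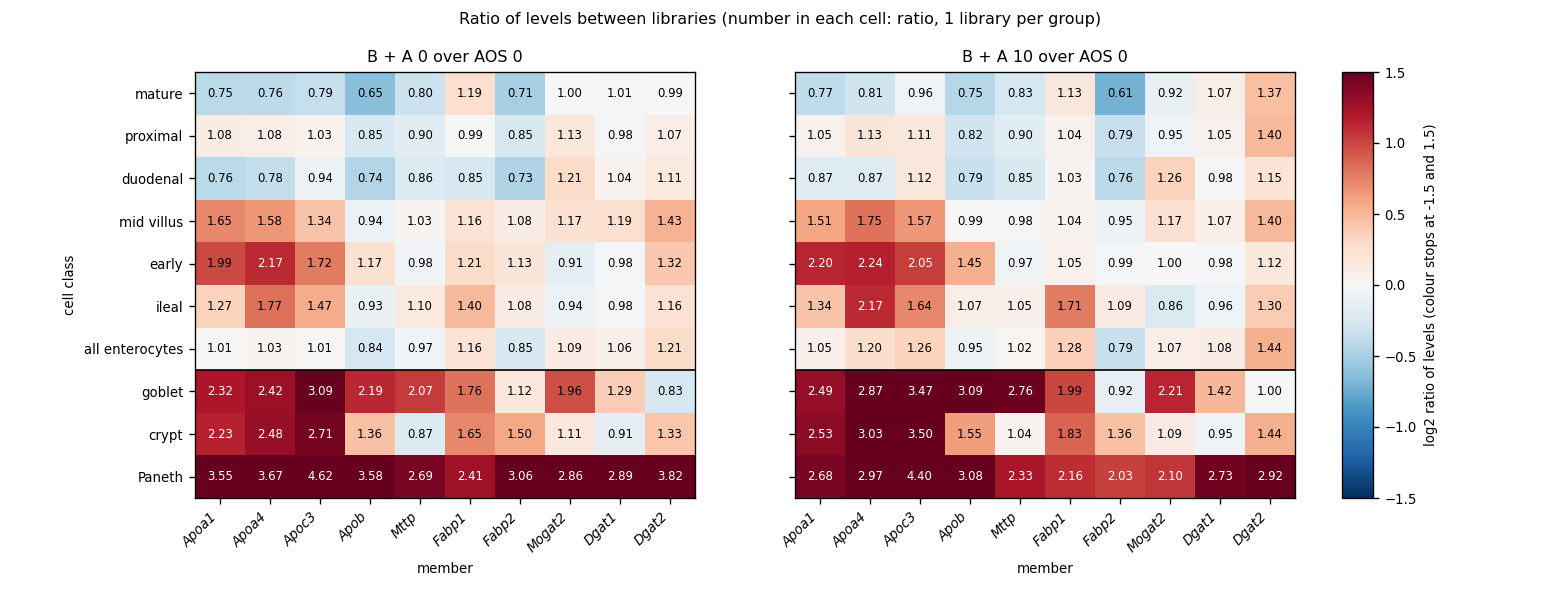
Ratio of the level in B + A 0 (left) and B + A 10 (right) to AOS 0 for each gene (columns) in each class (lines of the grid), with the ratio printed in each field and the colour showing its log2 from -1.5 to 1.5. Apoa1, Apoa4 and Apoc3 are below 1 in mature-like cells and above 1.5 in early-like, goblet-like, crypt-like and Paneth-like cells.

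The exchangeable apolipoproteins were higher in the busulfan libraries where their levels were low. In early-like cells the ratio of B + A 0 to AOS 0 was 1.99 (1.85 to 2.14) for Apoa1, 2.17 (1.90 to 2.48) for Apoa4 and 1.72 (1.43 to 2.06) for Apoc3, and of B + A 10 to AOS 0 2.2 (2.06 to 2.36), 2.24 (1.97 to 2.55) and 2.05 (1.72 to 2.43). These 3 of 9 genes passed 1.5-fold in both, against 2.03% and 3.78% of 2170 genes. In mid-villus-like cells 2 of 10 passed in B + A 0 and 3 of 10 in B + A 10, against 2.08% and 3.93% of 2646 genes. In ileal-like cells 1 of 10 (Apoa4) and 3 of 10 (Apoa4, Apoc3 and Fabp1) passed, against 1.7% and 3.69% of 2654 genes. Mttp in early-like cells had ratios of 0.975 (0.868 to 1.09) and 0.965 (0.862 to 1.08), and Dgat1 of 0.985 (0.867 to 1.12) and 0.984 (0.870 to 1.11).

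The goblet-like cells differed in the same direction. There the ratio of B + A 0 to AOS 0 was 2.32 (2.22 to 2.44) for Apoa1, 2.42 (2.19 to 2.69) for Apoa4 and 3.09 (2.66 to 3.61) for Apoc3, and of B + A 10 to AOS 0 2.49 (2.37 to 2.61), 2.87 (2.59 to 3.18) and 3.47 (2.98 to 4.06). For each 100 Apoa1 UMIs the goblet-like cells held 21.8, 22.7 and 25.1 Apoa4 UMIs, against 22.4, 22.8 and 25.2 in the whole libraries. Fabp2 departed from that ratio, with 414, 199 and 153 UMIs for each 100 of Apoa1 in goblet-like cells against 129, 111 and 97.7 in Paneth-like cells. In the enterocytes the 8 goblet markers summed to 31.5, 81.3 and 81.5 UMIs per 10000, the 6 Paneth markers to 19.4, 47.5 and 33.5 and the 7 T cell markers to 1.58, 6.02 and 7.59, all lowest in AOS 0. All 8 goblet and all 6 Paneth markers were detected in the enterocytes of each library, and macrophage markers summed to 0 in AOS 0. Their part in the differences between the libraries was not tested.

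Among the 28 further genes of the pathway compared between libraries, 3 passed 1.5-fold in at least 1 comparison. Of the 28, 1 was higher and 1 lower in B + A 0 than in AOS 0 (background 1.47% and 0.971% of all genes), 1 higher and 1 lower in B + A 10 than in B + A 0 (1.24% and 0.589%), and 2 higher and 0 lower in B + A 10 than in AOS 0 (3.31% and 2.28%). These few calls lay near the background. Apoc2, an activator of triglyceride clearance, was at 0.0554, 0.440 and 0.259 UMIs per 10000 in enterocytes (64, 312 and 195 UMIs), with a ratio of B + A 0 to AOS 0 of 7.95 (6.06 to 10.6) and of B + A 10 to AOS 0 of 4.67 (3.50 to 6.30). Cd36 was at 0.215, 0.263 and 0.405, with a ratio of B + A 10 to AOS 0 of 1.89 (1.59 to 2.24). Gpat4 was lower in B + A 0 than in AOS 0, with a ratio of 0.622 (0.461 to 0.831).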

How the data were processed

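Single-cell RNA sequencing of small intestinal epithelium was analysed in 3 libraries, 1 per group, assigned from the titles (AOS 0 for the control, B + A 0 for busulfan alone, B + A 10 for busulfan with AOS). Per the study's methods and processing notes, the authors mapped 10x 3′ libraries to mm10 with Cell Ranger 2.2.0, forced 5000 cells per library and kept cells with at least 200 genes and genes seen in at least 3 cells. The B + A 10 library held 5352 cells, above that number. The deposited values were the natural log of UMIs per 10000 of a cell plus 1. They were turned back into whole UMI counts (100% within 0.01 UMI), which were summed by class and library. No cells or genes were left out further.

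Cells were joined across libraries with canonical correlation anchors in Seurat 5.3.0 (R 4.3.3), in place of the older joining routine named in the methods, with 1979 of 2000 variable genes (21 members and genes of the pathway were left out, 9 of them members), 20 dimensions, 20 neighbours and resolution 0.8. A cluster was given a broad type from fixed markers where its score led that of every other type by at least 0.5 and its 10 leading genes (of those with at least 100 UMIs) did not go against the name. Enterocyte clusters were then named from the list with most markers among these leading genes, a tie going to the list of the earliest. This rule was chosen after the clusters were seen, and class names rebuilt here may differ from the study's. It left 4 clusters unnamed, led by Ccl9 (627 cells), Fam151a (575), Muc2 (382) and Wfdc18 (73). In the control, the busulfan library and the busulfan with AOS library, in that order, these held 5.26%, 6.07% and 4.05% of the cells for Ccl9, 4.21%, 4.32% and 4.93% for Fam151a, 3.14%, 2.88% and 3.01% for Muc2, and 0.731%, 0.438% and 0.542% for Wfdc18. The doublet caller Scrublet (scanpy 1.11.5) marked only 15 cells (0.119%) and had not worked, so doublets were kept.

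Ratios were called past 1.5-fold (2-fold for all enterocytes against crypt or goblet cells), with the percentage of all genes past it, among genes with at least 300 UMIs in the cells compared, as the background. Classes were required to pass in each library. All 10 members were named. Of each pathway list the lowest and highest genes were named, with others chosen after their values were seen. Plin2, Mogat1 and Apoa5 were not analysed here. Gene positions came from GENCODE and promoter windows from RefSeq. Members and lists were chosen with earlier results of these data known. The ratio and interval code was tested on simulated counts. Intervals were computed with scipy 1.17.1, and alternatives in joining, resolution, genes clustered, cell classes, doublets, filters, scaling and depth were tried.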

Additional observations from a re-analysis of the deposited data

Results flagged for a closer look

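Apoa1, Apoa4 and Apoc3 had ratios to AOS 0 on opposite sides of 1 in mature-like and early-like enterocytes, which drew attention to them. The ratio of B + A 0 to AOS 0 for Apoa1 was 0.753 in mature-like and 1.99 in early-like cells, and that of B + A 10 to AOS 0 was 0.770 and 2.2. For Apoa4 the ratios were 0.764 and 2.17 in B + A 0 and 0.814 and 2.24 in B + A 10. For Apoc3 they were 0.786 and 1.72 in B + A 0 and 0.964 and 2.05 in B + A 10. The difference between the classes was not tested, since each group was 1 library. The early-like levels of Apoa1 and Apoa4 lay near those of goblet-like cells, whose ratios to AOS 0 were 2.32 and 2.42 in B + A 0.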

How the results depend on the processing

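No paired analysis was possible because each group was 1 library and no test was made. All 10 genes stayed above crypt-like cells under every alternative run. The 10 genes lower in ileal-like cells became 5 when clusters were found without joining the libraries (Apoa1, Apob, Fabp2, Mogat2 and Dgat1 were not counted). There the mature cells fell into a cluster named mid-villus-like, and only duodenal-like cells were left to compare with. The count was 8 at resolution 0.4 and 8 with each cell classed by its own markers. Between libraries 0 genes passed 1.5-fold under every alternative run, and at a mark of 0.32 on the log2 scale 4 passed for B + A 10 against AOS 0 (3 higher and 1 lower, beside 11.6% and 13.5% of 6279 genes) and 0 in both other comparisons. Of 630 values of single genes under the alternatives 372 moved by less than counting error and 258 moved by more. A change of side was counted only for values past their mark, and there were 0. No ratio between libraries in all enterocytes was past 1.5-fold, so that count could not include them. Some of these ratios did cross 1, such as B + A 0 to AOS 0 for Apoa1, which ran from 0.894 to 1.06 over the alternatives. The count of genes lower by that mark in mature-like cells ran from 3 to 7 for B + A 0 and from 1 to 6 for B + A 10, with 5 and 3 of 10 under the processing used, beside 13.3% and 9.87% of 1824 genes. It was not given without joining or at resolution 0.4, where no mature-like class was found. One alternative, the Fam151a cluster counted with the enterocytes, was chosen after seeing the data. With 1 library per group, neither the spread between mice nor the handling of a library can be told apart from the treatment.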
